A study of Danio rerio with 6 samples.

Results

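Expression of 9 marker genes of cranial sensory neurons was followed in sorted isl1:Kaede cells of the zebrafish hindbrain. The set was given as a list of symbols: neurog1, pou4f1, pou4f2, pou4f3, p2rx3a, p2rx3b, drgx, tlx3b and prdm12b. All 9 were matched to an Ensembl identifier among the 32520 genes of the count tables. Of these, 7 had enough counts to be tested and 2 did not. RNA was sequenced from 3 RA libraries (replicates 6, 9 and 12) and 3 DMSO libraries (replicates 1, 4 and 10). RA embryos received 50 nM retinoic acid in DMSO from 24 hours post fertilization (hpf), and DMSO embryos the matching amount of solvent. Both groups carried the transgene Tg(isl1:Kaede), were kept in 0.2 mM PTU, an inhibitor of pigment formation, and were collected at 38 hpf. The posterior hindbrain was cut out by hand, and 4500 to 10000 Kaede-positive, DAPI-negative cells were sorted per library. The labels call the cells vagus motor neurons, although the sort itself selects on Kaede alone. The labels do not say whether the libraries of a group came from separate clutches, so p-values measure the spread between these libraries, which may be partly technical.

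Cranial sensory neurons arise from placodes and the neural crest and form the ganglia of the trigeminal, facial, glossopharyngeal and vagus nerves. The gene isl1, whose regulatory sequence names the transgene, is expressed in cranial motor neurons and also in newly formed sensory neurons. The proneural factor Neurog1 starts sensory neurogenesis, homeodomain and PR-domain factors then set the identity of the neurons, and receptors such as the ATP-gated channel P2X3 mark their mature function. Most of these factors are also used in the hindbrain itself, so their RNA is not specific to ganglia.

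The libraries held 15971653 to 22349857 counted fragments in RA and 20432411 to 23411427 in DMSO. Levels are given as CPM, the share of a gene in the TMM-scaled total of its library times 1000000, and 1 count was worth 0.0422 to 0.0623 CPM. The branchiomotor factor phox2bb lay at 2011 ± 117 CPM in RA and 2853 ± 333 CPM in DMSO (SD, n = 3 each). The LIM factor isl1a lay at 1236 ± 241 CPM in RA and 1964 ± 379 CPM in DMSO (SD, n = 3 each). Of the 28 matched sensory receptor and channel genes besides P2X3, 25 had enough counts to be tested. The 3 that did not are channel genes of mature sensory neurons, while other channel genes of the list were tested. The heat-gated channel trpv1 had 2, 9 and 9 counts in RA and 5, 11 and 10 in DMSO. The irritant-gated channel trpa1b had 4, 0 and 1 counts in RA and 15, 4 and 5 in DMSO. Its paralog trpa1a, which was tested, had 91, 122 and 113 counts in RA and 122, 157 and 141 in DMSO. The channel subunit p2rx2, a partner of P2X3, had 4, 7 and 3 counts in RA and 6, 2 and 5 in DMSO. In bulk RNA, fewer cells of a type and less RNA per cell cannot be told apart, and this holds for every level below.

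The 9 genes fell into 4 tiers of level when counts were divided by exon length. The highest tier held neurog1 and prdm12b, at means of 48.6 and 48.5 CPM per kb over the 6 libraries. These 2 levels differed by less than their spread between libraries, and both genes stood above 89.3% or more of the tested genes. The second tier held tlx3b at 10.5 and pou4f2 at 8.41 CPM per kb. Their ranges met, because tlx3b lay at 8.34 ± 1.73 CPM per kb in RA and 12.7 ± 2.73 in DMSO, against 7.05 ± 2.63 in RA and 9.76 ± 1.82 in DMSO for pou4f2 (SD, n = 3 each). The third tier held drgx, pou4f1 and p2rx3b, at means of 2.63, 2.53 and 1.11 CPM per kb. The first 2 of these could not be ordered within their spread, with SDs of 0.601 to 1.83 CPM per kb, and p2rx3b lay lower, with 20.4% of tested genes below it. The last tier held p2rx3a and pou4f3, at or near 0. On the same scale isl1a averaged 695 and the vesicular acetylcholine transporter gene slc18a3a 175 CPM per kb. Not all motor neuron genes lay that high, as slc5a7a and chata averaged 14.8 and 11.4 CPM per kb, below neurog1 and prdm12b. The 9 genes together summed to 247, 376 and 270 CPM in RA replicates 6, 9 and 12, against 280, 289 and 259 CPM in DMSO replicates 1, 4 and 10. The ranges of the groups overlapped. The largest contributor was prdm12b, which held 51.4% to 53.6% of the sum in RA and 44.1% to 52.9% in DMSO. Without prdm12b and neurog1, the rest summed to 56.0, 53.7 and 67.7 CPM in RA replicates 6, 9 and 12. In DMSO replicates 1, 4 and 10 the rest came to 106, 84.3 and 66.5 CPM. These ranges overlapped only in that DMSO replicate 10 lay below RA replicate 12. This sum leaves out the only 2 tested genes with a log2 fold change above 0, so it is a description.

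**Figure D1:**
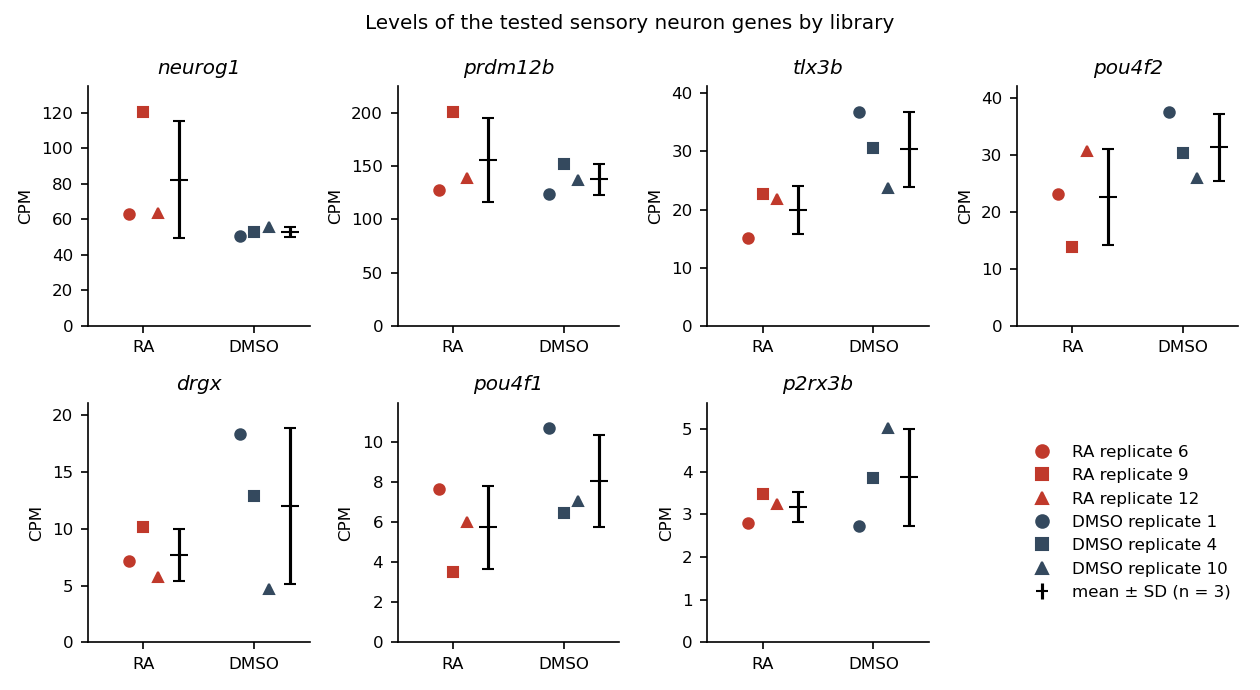
Level in CPM (vertical axis, linear, from 0) of the 7 tested genes in each library, with RA left of DMSO, 1 symbol per replicate and a bar for mean ± SD (n = 3). The groups are apart in 2 genes, neurog1 and tlx3b, and the RA value of neurog1 is highest in replicate 9, at 121 CPM.

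The proneural gene neurog1 (ENSDARG00000056130, GRCz11 chromosome 14, 26703331 to 26704829, minus strand) encodes the bHLH factor that is required for cranial sensory ganglia in zebrafish and is also active in central neural precursors. It had 63.1, 121 and 63.5 CPM in RA replicates 6, 9 and 12, against 50.4, 52.7 and 55.8 CPM in DMSO replicates 1, 4 and 10. All RA values were above all DMSO values. RA replicate 9 stood apart from the other RA libraries, with a ratio of 1.91 between the highest and the lowest, whereas the DMSO libraries lay within a ratio of 1.11. The log2 fold change was 0.64 (SE 0.25, 95% interval 0.06 to 1.22), and it did not pass the threshold of 0.05 after adjustment over all tested genes (edgeR quasi-likelihood test, Benjamini-Hochberg adjusted p = 0.434). Without RA replicate 9 the log2 fold change was 0.25 (edgeR adjusted p = 0.472). Markers of neural progenitors were likewise highest, among the RA libraries, in replicate 9. The 14 matched genes of that list summed to 3035, 4411 and 3135 CPM in RA replicates 6, 9 and 12 and to 3773, 4055 and 4343 CPM in DMSO replicates 1, 4 and 10. This was not particular to progenitors. Most of the other gene lists described below also had their highest RA sum in replicate 9, and only the branchiomotor and retinal lists did not. The part of progenitors in the level of neurog1 was not tested.

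The POU4 factors share a POU domain and a homeodomain, and in mouse Pou4f1 maintains sensory ganglion neurons, Pou4f2 retinal ganglion cells and Pou4f3 inner ear hair cells. Gene pou4f1 (ENSDARG00000005559, chromosome 6, 4539953 to 4543005, plus strand) had 7.66, 3.53 and 6.02 CPM in RA replicates 6, 9 and 12, against 10.7, 6.46 and 7.07 CPM in DMSO replicates 1, 4 and 10. The groups overlapped, and the lowest value was that of RA replicate 9. Its log2 fold change was -0.50 (SE 0.35, 95% interval -1.30 to 0.31, edgeR adjusted p = 0.755). Gene pou4f2 (ENSDARG00000069737, chromosome 1, 36436936 to 36440301, plus strand) had 23.2, 13.9 and 30.8 CPM in RA replicates 6, 9 and 12, against 37.6, 30.4 and 26.0 CPM in DMSO replicates 1, 4 and 10. Here too the groups overlapped and RA replicate 9 was lowest. Its log2 fold change was -0.47 (SE 0.29, 95% interval -1.14 to 0.20, edgeR adjusted p = 0.696). Without RA replicate 9 the log2 fold changes were -0.24 for pou4f1 and -0.22 for pou4f2 (edgeR adjusted p = 0.823 and 0.76).

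Within the POU4 family the order did not change with treatment. Per length, pou4f2 exceeded pou4f1 by 2.58, 3.36 and 4.35 times in RA replicates 6, 9 and 12 and by 2.99, 4.01 and 3.13 times in DMSO replicates 1, 4 and 10, and these ranges overlapped. Gene pou4f3 (ENSDARG00000006206, chromosome 9, 54290896 to 54292162, plus strand) had 0 counts in all 6 libraries. A count of 0 allows up to 3 counts, or 0.127 to 0.187 CPM per library, which covers counting error alone. The name table gives this identifier the symbol POU4F3, but RefSeq lists pou4f3 on chromosome 21 of a later assembly, and only 5 neighbouring genes were shared between the places. The 15 matched hair cell genes other than pou4f3 summed to 5.85 to 11.5 CPM in RA and 9.70 to 13.9 CPM in DMSO, and 4 of them could be tested. The most abundant were otofa, which encodes an otoferlin of the ribbon synapse, at 1.43 to 6.29 CPM in RA and 4.09 to 7.42 CPM in DMSO, and the myosin genes myo7aa and myo6b. Among retinal ganglion cell genes, atoh7 stayed at or below 0.152 CPM in RA and 0.342 CPM in DMSO, whereas isl2b, which sensory neurons share, lay at 8.55 to 10.9 CPM in RA and 12.6 to 17.3 CPM in DMSO, and rbpms2b at 3.80 to 9.84 CPM in RA and 1.61 to 1.76 CPM in DMSO.

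Genes drgx and tlx3b, both in the set as sensory neuron markers, encode homeodomain factors. In mouse these factors also act together in relay neurons of the dorsal spinal cord and hindbrain. Gene tlx3b (ENSDARG00000017615, chromosome 10, 22051054 to 22057001, minus strand) had 15.1, 22.6 and 21.9 CPM in RA replicates 6, 9 and 12, against 36.7, 30.6 and 23.7 CPM in DMSO replicates 1, 4 and 10. Every RA library lay below every DMSO library, with a narrow gap between RA replicate 9 and DMSO replicate 10. The log2 fold change was -0.61 (SE 0.23, 95% interval -1.14 to -0.08), short of the threshold (edgeR adjusted p = 0.404). Gene drgx (ENSDARG00000069329, chromosome 13, 30912117 to 30920265, plus strand) had 7.16, 10.2 and 5.77 CPM in RA replicates 6, 9 and 12, against 18.4, 12.9 and 4.71 CPM in DMSO replicates 1, 4 and 10. The DMSO libraries differed 3.89-fold among themselves, and DMSO replicate 10 lay below every RA library. The log2 fold change was -0.64 (SE 0.46, 95% interval -1.70 to 0.42, edgeR adjusted p = 0.768). It was -1.02 without DMSO replicate 10 and -0.20 without DMSO replicate 1 (edgeR adjusted p = 0.428 and 0.978), so single DMSO libraries set the size of this difference.

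Among other dorsal hindbrain genes, barhl2 and lmx1ba, which encode homeodomain factors and were picked after their values were seen, were also lowest among the DMSO libraries in replicate 10. Gene barhl2 had 16.8, 29.0 and 12.0 CPM in RA replicates 6, 9 and 12, against 82.0, 58.8 and 26.0 CPM in DMSO replicates 1, 4 and 10. Gene lmx1ba had 2.24, 6.87 and 3.24 CPM in the RA libraries, against 10.2, 9.75 and 3.81 CPM in the DMSO libraries. The progenitor factor gene gsx2 and gad1b, which encodes an enzyme of GABA synthesis, instead had their highest DMSO value in replicate 10, at 66.0 and 30.5 CPM. The sum of the dorsal interneuron list without the 9 genes was carried by phox2bb, which motor neurons share, and every RA library lay below every DMSO library on it, at 2793, 3476 and 3218 CPM in RA and 4456, 3886 and 4218 CPM in DMSO. Without phox2bb, a sum computed after the values were seen, the other 30 matched genes came to 892, 1477 and 1085 CPM in RA replicates 6, 9 and 12, against 1462, 1414 and 1126 CPM in DMSO replicates 1, 4 and 10. On this sum the groups overlapped, RA replicate 9 was highest and DMSO replicate 10 was the lowest of its group. Of the 28 tested genes among the 30, 23 had their lowest DMSO value in replicate 10, beside 33.8% of all tested genes. The part of dorsal interneurons in the levels of tlx3b and drgx was not tested. The ratio of tlx3b to drgx per length ranged from 3.33 to 5.97 in RA and from 3.15 to 7.92 in DMSO.

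Gene prdm12b (ENSDARG00000007430, chromosome 5, 63509761 to 63515210, minus strand) encodes a PR-domain regulator that in mammals is needed for pain-sensing neurons and in zebrafish also specifies progenitors of a class of ventral interneurons. It was the most abundant of the 9 in CPM, at 128, 201 and 138 CPM in RA replicates 6, 9 and 12, against 124, 152 and 137 CPM in DMSO replicates 1, 4 and 10. The groups overlapped, and RA replicate 9 was again the highest. Its log2 fold change of 0.18 (SE 0.19) had an edgeR adjusted p = 0.868, and its 95% interval of -0.25 to 0.61 bounds any change more tightly than for the other 6 tested genes. The sign was not stable, at -0.05 without RA replicate 9. A list of 10 progenitor and ventral interneuron genes, not all of them particular to that class, was drawn up after the values were seen. Of its 9 matched genes 5 were tested. Another 2 had 0 counts in all 6 libraries, en2b and evx1, and evx1 is not a marker of that class. The list summed to 103, 179 and 133 CPM in RA replicates 6, 9 and 12 and to 146, 147 and 161 CPM in DMSO replicates 1, 4 and 10. The engrailed gene en1b had 26.6, 44.5 and 31.6 CPM in RA and 63.6, 60.4 and 55.2 CPM in DMSO, and the progenitor gene dbx1a had 46.9, 97.3 and 60.2 CPM in RA and 41.5, 54.8 and 78.6 CPM in DMSO. Their share in the level of prdm12b was not tested. Set against neurog1 per length, prdm12b stood at 0.932, 0.768 and 1.00 in RA replicates 6, 9 and 12 and at 1.13, 1.33 and 1.13 in DMSO replicates 1, 4 and 10. These ratios did not overlap between groups, and neither did the values of neurog1 alone. The difference of the ratios was not tested, and the share of gene pairs with ratios apart was not computed.

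The P2X3 genes encode subunits of an ATP-gated cation channel of nociceptive and taste-related sensory endings. Gene p2rx3b (ENSDARG00000029718, chromosome 1, 44746154 to 44758388, plus strand) had 2.80, 3.48 and 3.24 CPM in RA replicates 6, 9 and 12, against 2.73, 3.84 and 5.02 CPM in DMSO replicates 1, 4 and 10. These are 45 to 78 counts per RA library and 56 to 100 per DMSO library. The groups overlapped, and the log2 fold change was -0.28 (SE 0.33, 95% interval -1.05 to 0.49, edgeR adjusted p = 0.9). Its paralog p2rx3a (ENSDARG00000010477, chromosome 14, 21942383 to 21959712, minus strand) had 0 counts in every library except DMSO replicate 4, which had 1. An exon of p2rx3a overlaps an exon of another gene on the opposite strand, and because the counting left out fragments shared between genes and ignored strand, its count is uncertain. No annotated gene overlaps the other members but pou4f3, whose span overlaps 1 gene without sharing exons.

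**Figure D2:**
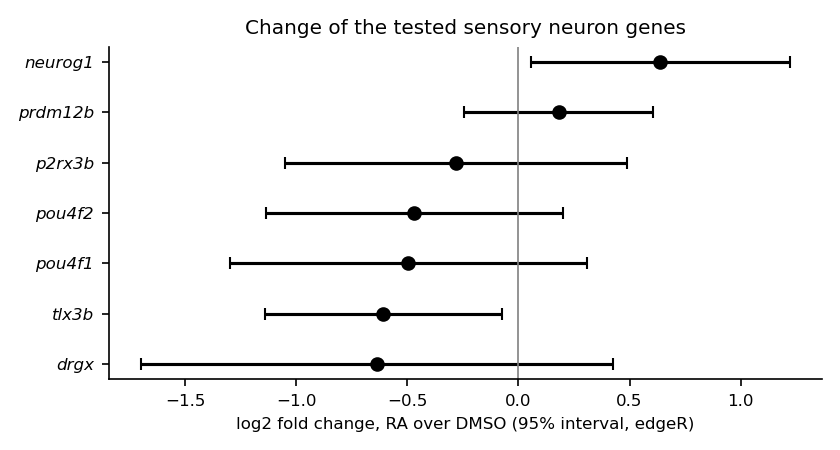
Log2 fold change of RA over DMSO (horizontal axis) with its 95% interval for each of the 7 tested genes, from the edgeR fit. The unadjusted intervals of neurog1 (0.06 to 1.22) and tlx3b (-1.14 to -0.08) exclude 0, and neither gene passed 0.05 after adjustment.

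None of the 7 tested genes passed an adjusted p of 0.05 in the edgeR test, where 0.799% of the 17270 tested genes did (0.446% higher and 0.353% lower in RA), and none passed with DESeq2, where 3.89% did. At an unadjusted p of 0.05, neurog1 and tlx3b were below it, against 10.2% of all tested genes. Those genes were also the only ones among the 7 whose groups did not overlap, 1 higher in RA and 1 lower, where 15.5% of tested genes had groups apart (7.78% higher and 7.7% lower). The count over 7 genes was not tested against that share. The median log2 fold change of the 7 was -0.47, with 5 below 0 and 2 above, beside a median of 0.02 over all tested genes.

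The libraries of a group did not scale all members alike. In RA replicate 9, 5 of the 7 genes had their highest RA value, neurog1, prdm12b, tlx3b, drgx and p2rx3b, and the POU4 genes had their lowest. Relative to the RA mean in log2 CPM, neurog1 stood 0.62 above in that library and pou4f1 fell by 0.63. In DMSO replicate 1, tlx3b, pou4f2, drgx and pou4f1 had their highest value of all 6 libraries, and neurog1, prdm12b and p2rx3b their lowest. The widest departure was that of drgx in DMSO replicate 10, at -1.14 from its group mean. Pigment cell genes, chosen after their values were seen, were also highest in RA replicate 9, with 124 CPM of the melanin enzyme gene dct there and 9.34 and 24.9 CPM in the other RA libraries, against 0.83, 13.2 and 0.15 CPM in DMSO replicates 1, 4 and 10. The part of these cells in the members' values was not tested.

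**Figure D3:**
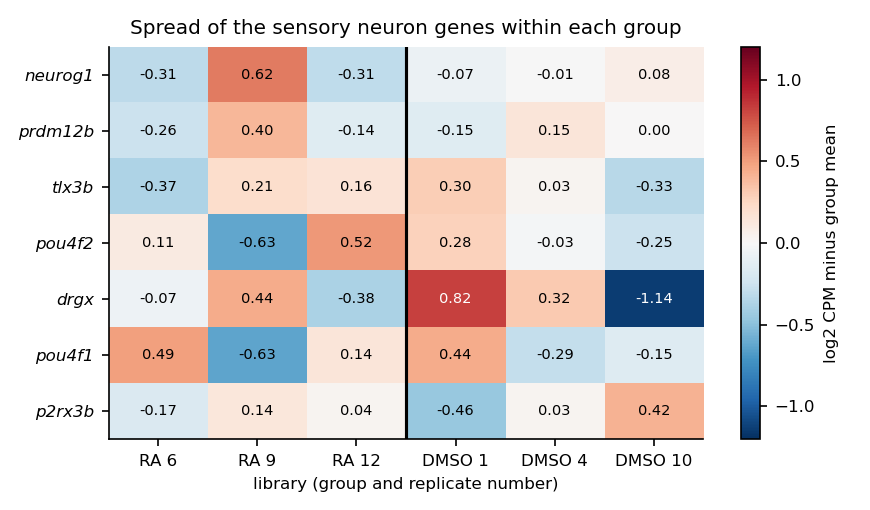
Difference of each library's log2 CPM from the mean of its own group (colour and printed value) for the 7 tested genes (rows) in RA libraries (left of the line) and DMSO libraries (right). In RA replicate 9 neurog1 is at 0.62 and pou4f1 and pou4f2 are at -0.63, and drgx is at -1.14 in DMSO replicate 10.

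Other genes of sensory development were examined as lists. Together with the lists of other cell types they held 189 genes besides the 9, of which 173 were matched and 143 tested. Of the 143, 2 were higher and 4 lower in RA at an adjusted p of 0.05, which is 4.2% beside 0.799% of all tested genes, and 69.9% had a log2 fold change below 0 beside 47.4% of all. The lists were chosen with earlier results of these data known, so these shares are a description. Some genes stand in more than 1 list, among them isl1a, isl2a and phox2bb.

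Placode and precursor genes gave no call. Of 19 tested genes, 13 had a log2 fold change below 0 and 6 above, with a median of -0.56. The most abundant were the zinc finger gene insm1a, at 667 to 669.7 CPM in RA and 532 to 680.3 CPM in DMSO, the progenitor factor sox3, at 608 ± 202 CPM in RA and 582 ± 123 CPM in DMSO, and the bHLH gene neurod4, at 422 ± 84.7 CPM in RA and 400 ± 44.9 CPM in DMSO (SD, n = 3 each). These 3 were among the 6 above 0, so they do not stand for the list. The groups were apart in eya1, six1a, six4b and foxi1, which were lower in RA, and in dlx3b, which was higher. Their edgeR adjusted p ran from 0.132 to 0.342, and 15.5% of all tested genes had groups apart. Gene foxi1 was near the floor, with 1, 0 and 6 counts in RA and 12, 19 and 23 in DMSO. Gene eya1 lay at 121 ± 52.2 CPM in RA and 279 ± 43.2 CPM in DMSO (SD, n = 3 each). Gene dlx3b lay at 6.99 ± 2.33 CPM in RA and 2.46 ± 1.52 CPM in DMSO (SD, n = 3 each). Among sensory neuron transcription factors other than the 9, 1 of 16 passed, and 14 lay below 0 with a median of -0.41. This was runx1, a Runt factor that in mouse directs nociceptors and that blood precursors also use. It had 2.93, 5.18 and 2.78 CPM in RA replicates 6, 9 and 12, against 13.9, 10.9 and 13.2 CPM in DMSO replicates 1, 4 and 10. The groups were well apart, and the DMSO libraries lay close together. It fell by 1.80 on the log2 scale (SE 0.30, edgeR adjusted p = 0.0465). The call was lost without RA replicate 6 or 12 or any single DMSO library (edgeR adjusted p = 0.138 to 0.186). Of the 16 tested genes of this list, 7 had groups apart, all lower in RA, beside 7.7% of all tested genes. The abundant members of this list, isl1a, onecut1 and ebf2, are expressed in many neurons, with onecut1 and ebf2 at 977 ± 113 and 437 ± 140 CPM in RA and at 1295 ± 205 and 452 ± 32.1 CPM in DMSO (SD, n = 3 each).

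Sensory receptors and channels also gave no call. Of 25 tested genes besides p2rx3b, 15 lay below 0 and 10 above, with a median of -0.14. The most abundant were ret and gfra3, which encode a signalling receptor and a co-receptor of the GDNF family, and the neurotrophin receptor gene ngfrb. They lay at 168 ± 27.2, 122 ± 12.6 and 60.8 ± 12.2 CPM in RA and at 195 ± 44.9, 133 ± 8.34 and 44.6 ± 4.31 CPM in DMSO (SD, n = 3 each). Among sensory peptide and axon genes, 1 of 13 passed. This was tac1, which encodes the precursor of substance P, a peptide of nociceptors and of some central neurons. It had 74.4, 96.1 and 97.4 CPM in RA replicates 6, 9 and 12, against 23.2, 23.3 and 40.3 CPM in DMSO replicates 1, 4 and 10. All RA libraries were high, and the groups were apart. It rose by 1.63 on the log2 scale (SE 0.24, edgeR adjusted p = 0.0288). The call was lost without RA replicate 12 (edgeR adjusted p = 0.0982) and without DMSO replicate 1 or 4 (0.151 and 0.156). Genes elavl3, prph and elavl4, which encode neuronal RNA-binding proteins and an intermediate filament shared by sensory and motor neurons, were the most abundant and lay at 3096 ± 735, 885 ± 71 and 396 ± 28.6 CPM in RA and at 3557 ± 560, 1076 ± 210 and 459 ± 130 CPM in DMSO (SD, n = 3 each).

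**Figure D4:**
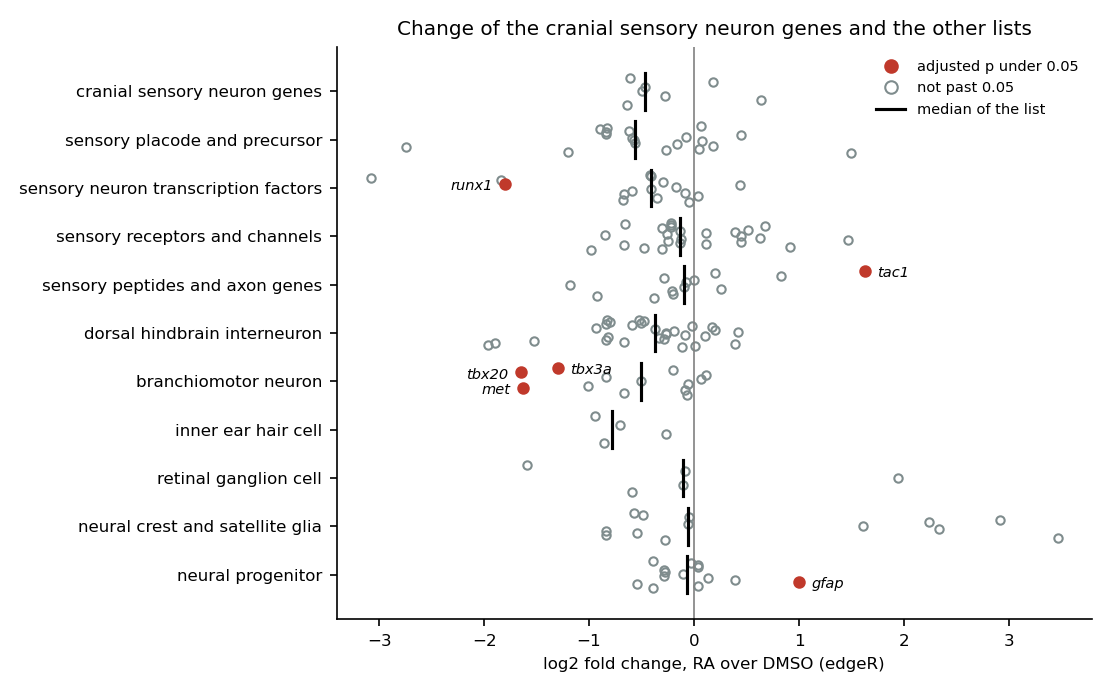
Log2 fold change of RA over DMSO (horizontal axis, edgeR) for each tested gene of the cranial sensory neuron set (top) and of the other lists, without those genes. Filled points passed an adjusted p of 0.05, black lines are medians, and none of the 7 tested sensory neuron genes is filled, while runx1 at -1.80 and tac1 at 1.63 are.

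The lists of other cell types place these levels. Branchiomotor genes summed to 5152 to 6354 CPM in RA and 7199 to 9572 CPM in DMSO, with 11 of 13 tested genes below 0, a median of -0.50 and 3 lower past 0.05. These were the T-box genes tbx20 and tbx3a and the Hgf receptor gene met, at -1.65, -1.30 and -1.63 in log2 fold change (SE 0.13, 0.14 and 0.23, edgeR adjusted p = 0.00482, 0.00796 and 0.0247). The most abundant of that list were phox2bb, isl1a and phox2a. Of 29 tested dorsal interneuron genes none passed, 23 lay below 0 and the median was -0.37, and phox2bb, ascl1b and lmx1bb were the most abundant. The groups were apart in 6 of these genes, all lower in RA, beside 7.7% of all tested genes. The largest falls were those of atoh1a and barhl1a, at -1.96 and -1.90 in log2 fold change (edgeR adjusted p = 0.0817 and 0.0572). Of 13 tested neural crest and satellite glia genes none passed, and 8 lay below 0 and 5 above, with a median of -0.06. Their log2 fold changes ran from -0.84 for foxd3 to 3.46 for dct. The groups were apart in 2 genes higher and 3 lower in RA, beside 15.5% of all tested genes. Gene fabp7a, which is also in the progenitor list, led in level with tfap2a and plp1a. Of 14 tested progenitor genes 1 passed, the glial filament gene gfap, which rose to 139 ± 20.9 CPM in RA, against 69.6 ± 9.45 CPM in DMSO (SD, n = 3 each, log2 fold change 1.00, edgeR adjusted p = 0.0352), and fabp7a, dlb and pcna were the most abundant. Of 5 tested retinal genes other than pou4f2 none passed, the median was -0.11, and vsx1 and isl2b led in level at 13.5 ± 4.96 and 9.92 ± 1.23 CPM in RA and at 14.3 ± 4.3 and 14.9 ± 2.38 CPM in DMSO (SD, n = 3 each). The median of the 4 tested hair cell genes was -0.78, with none past 0.05. Leaving out any single DMSO library ended the calls of tbx3a, met and gfap (edgeR adjusted p = 0.0609 to 0.187), and leaving out RA replicate 6 or 12 ended those of met and gfap (0.0638 to 0.0942).

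The genes whose pattern over the 6 libraries was most like that of neurog1 were sought among 11990 genes with a mean of at least 5 CPM. Neurog1 was taken because its pooled mean per length was the highest, although its lead over prdm12b lay within the spread and prdm12b was higher in DMSO. Likeness was the root-mean-square difference in log2 CPM after centring each gene on its mean over the 6 libraries. The closest was a gene that the name table calls EPHA4 (ENSDARG00000054454), an Eph receptor, at 0.05. It had 49.1, 83.1 and 44.9 CPM in RA replicates 6, 9 and 12 and 36.3, 38.6 and 39.7 CPM in DMSO replicates 1, 4 and 10. It repeated the high value of RA replicate 9. The next were si:dkey-35m8.1, si:dkey-57k17.1, aldh3a2a, which encodes a fatty aldehyde dehydrogenase, and spata22, at 0.08 to 0.11. With 6 libraries, 601 of the 11990 genes lay within 0.3, a looser limit than 0.11. How common a difference of 0.05 to 0.11 is was not computed.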

How the data were processed

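The authors deposited raw counts of fragments per gene, 1 table per library. Per the file headers, these counts came from featureCounts 1.6.0, which counted read pairs and ignored strand on the GRCz11 annotation of Ensembl release 95. The submitters' processing notes name STAR 2.5.2a for alignment and, differing from the headers, Subread 1.5.0. Per the labels' protocols, cDNA was amplified with SMART-Seq v4 and libraries were made with Nextera XT and hold no molecular identifiers. Fragments that overlap several genes are left out under these options.

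Names came from an identifier table, and orthologue symbols were resolved by chromosome or, for pou4f3 and prdm12b, by shared neighbouring genes in RefSeq (GRCz12tu, names alone). Of 32520 genes, 29201 had a name. Of the paralogs listed, tlx3a and prdm12a were not matched and are not analysed here.

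The edgeR 4.0.16 quasi-likelihood test (R 4.3.3) was fitted to all 6 libraries with filterByExpr, TMM scaling and treatment as the only term. Two-sided p-values were adjusted over 17270 genes by Benjamini-Hochberg, with a threshold of 0.05. Standard errors are the log2 fold change over the square root of F. No batch is labelled. Within a group, counts differed by more than sampling noise (17.1 to 76.6 for chi-square over its degrees of freedom). This excess may be partly technical and does not show that libraries came from separate clutches. Each library was treated as 1 replicate. Intervals for counts cover counting error only. The 13 alternatives were other scalings, no filter, DESeq2 1.42.0, a robust dispersion, each library left out, and limma-voom (limma 3.58.1) plain or weighted by library quality.

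The 9 genes and the lists were chosen with earlier results of these data known. Named were all 9, list genes past the threshold, the 3 most abundant of each list but that of ventral interneurons, and the 5 genes most like neurog1. Further genes named were chosen after their values were seen.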

Additional observations from a re-analysis of the deposited data

How the results depend on the processing

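No paired analysis was made because the RA and DMSO libraries share no replicate number. Whether RA and DMSO libraries were prepared in pairs is not known. None of the 7 tested members passed 0.05 under any of the 13 alternatives. Their directions held except for prdm12b, whose log2 fold change was -0.041 with limma-voom quality weights and -0.053 to 0.304 with a library left out, the lowest without RA replicate 9. Across the 13, log2 fold changes ran 0.25 to 0.80 for neurog1, -0.76 to -0.45 for tlx3b, -1.02 to -0.20 for drgx, -0.76 to -0.15 for pou4f1, -0.76 to -0.22 for pou4f2 and -0.48 to -0.05 for p2rx3b. The number of genes called in all was 138 (77 higher, 61 lower). It was 276 (156 and 120) with no filter, 671 (357 and 314) with DESeq2 and 394 (196 and 198) with quality weights. Leaving out single libraries gave 9 to 325 genes (3 to 173 higher, 4 to 152 lower), the lowest without DMSO replicate 4 and the highest without RA replicate 9. Of the list genes besides the 9, 6 were called. There were 13 with no filter, 19 with DESeq2, 14 with quality weights and 1 to 12 with a library left out. Of these 6, tbx20 passed in all 13 alternatives, and runx1, tac1, tbx3a, met and gfap in 8, 10, 10, 8 and 8. The causes were not tested. Genes p2rx3a and pou4f3 had too few counts to be tested, where 1 count was worth 0.0422 to 0.0623 CPM. Whether depth, annotation or absence of the RNA set their counts was not tested.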
